A study of Homo sapiens with 9 samples.

Results

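Actins and the proteins that bind or pull on them were examined in U87 cells, in GSCs and in Diff cells. The group held 10 genes, chosen by symbol, of 60606 genes in the table, and all 10 were present. They were the actins ACTB, ACTG1 and ACTA2, the myosin light chain gene MYL9, the tropomyosins TPM1 and TPM2, the calponin family genes TAGLN and CNN1, the caldesmon gene CALD1 and the vinculin gene VCL. There were 9 RNA-seq libraries, 3 for each of the lines. U87, an established line of human glioblastoma, was grown in serum. GSCs are radioresistant glioblastoma stem cells of U87 origin that had been irradiated repeatedly and were kept in serum-free medium with EGF and bFGF. Diff cells are the radioresistant cells differentiated from those GSCs and were grown in serum like U87, from cells picked out of clonal communities. Cell state and medium therefore cannot be told apart between GSCs and either serum-grown line. GSCs and Diff cells also share a history of irradiation and selection that U87 lacks. In both comparisons with U87 that history cannot be told apart from cell state. The same holds for the clonal picking of Diff cells in both comparisons that include them. All 3 lines descend from 1 cell line, so none of the comparisons covers more than 1 genetic background.

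Actin monomers assemble into filaments, and bundles of filaments with nonmuscle myosin II form the stress fibres that let an adherent cell pull on its surroundings. Myosin II is switched on through its regulatory light chain, tropomyosin and caldesmon lie along the filament and govern access to it, calponin and transgelin bind and stabilise it, and vinculin ties its end to integrin adhesions. ACTB and ACTG1 are the cytoplasmic actins of nearly every cell, whereas ACTA2, TAGLN, CNN1 and MYL9 are known best from smooth muscle and myofibroblasts. Many of these genes are classical targets of the transcription factor SRF, which binds the CArG box, and of its actin-sensing cofactors.

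Values are given as TPM, the share of transcripts that belong to a gene after division by its length, scaled to an equal total in every library, so levels of different genes can be set side by side. TPM is a share of each library and not an amount per cell. The test compared log2(TPM + 1), on which scale changes of genes near 0 TPM are understated. A gene was called when the Benjamini-Hochberg adjusted p of limma over all 22909 genes with a mean TPM over 1 was under 0.05, and called large when its log2 fold change was also past 1 in either direction. The study's statistics section speaks of biological replicates for its data in general, but for the RNA-seq libraries neither labels nor methods name separate cultures. P-values therefore measure only the spread between these libraries, which may be technical. Mitochondrial genes held 25.9% to 31.8% and the noncoding RNA RN7SL1 5.73% to 9.79% of the TPM of a library. Libraries of 1 line correlated at a Pearson r of 0.956 to 0.971 across the tested genes, which are not independent replicates. Of the stem cell markers stained in the study, FABP7 was higher in GSCs than in U87 (log2 fold change 1.77, adjusted p = 2.66e-05 from limma), and NES was lower (log2 fold change -0.53, adjusted p = 0.00047). SOX2 and PROM1 stayed below the filter, at 0.879 ± 0.101 TPM and 0.507 ± 0.113 TPM in GSCs (SD, n = 3), against 0.0383 ± 0.0663 TPM and 0.171 ± 0.0599 TPM in U87. Of 8 glial and neuronal markers, 4 passed the filter. The glial marker GFAP was at 2.29 ± 0.282 TPM in U87 and under 1 TPM on average in the other lines. OLIG2 averaged 7.27 TPM in U87, 8.75 in GSCs and 5.37 in Diff cells. In the same order TUBB3 averaged 3.74, 4.66 and 5.22 TPM, and MAP2 7.95, 8.22 and 21.7 TPM. ALDH1L1, S100B, AQP4 and RBFOX3 stayed below the filter. Among 10 markers of other cell types, 5 passed the filter, and VWF moved most, with mean TPM of 0.527 in U87, 11.4 in GSCs and 1.74 in Diff cells. The part of these marker differences in the results was not tested.

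The group split in GSCs. Against U87, 5 of the 9 tested members were lower, 1 was higher and 3 were not called. ACTB, ACTA2, TPM1, CALD1 and VCL made up the lower genes, and TPM2 was the higher one. Over all tested genes, 23.3% were called lower and 25.3% higher in the same comparison. Only TPM1 was a large call, of a kind that 7.53% of tested genes showed downward and 9.52% upward. The median log2 fold change was -0.38 over the 9 members and 0.02 over all tested genes. The values of GSCs and U87 did not overlap for 7 of the 9 members and for 55.8% of all tested genes.

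In Diff cells against U87, 3 members rose, namely MYL9, TPM1 and CNN1, and none was called lower by limma. The other 6 did not pass the test, of which 1, CALD1, was lower at an unadjusted p under 0.05. Among all tested genes 18.9% were called higher and 20.5% lower. MYL9 was the 1 large call, where 5.92% of tested genes were large and higher and 6.36% large and lower. The members had a median log2 fold change of 0.06, against -0.04 for all tested genes. Groups did not overlap for 5 of 9 members and for 55.2% of tested genes. This comparison and the preceding one use the same U87 libraries.

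Diff cells against GSCs gave the most calls upward. Here 6 of 9 members were higher in Diff cells, 1 (TPM2) was lower and 2 (CALD1 and VCL) were not called. The matching shares of all tested genes were 15% higher and 19.8% lower. MYL9, TPM1 and CNN1 were large calls, while 2.66% of tested genes were large and higher and 5.36% large and lower. The median was 0.72 over the members and -0.06 over all tested genes. For 7 of 9 members the groups did not overlap, as for 46.7% of tested genes. TAGLN, the 10th member, had a mean TPM under 1 and did not enter these counts.

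**Figure D1:**
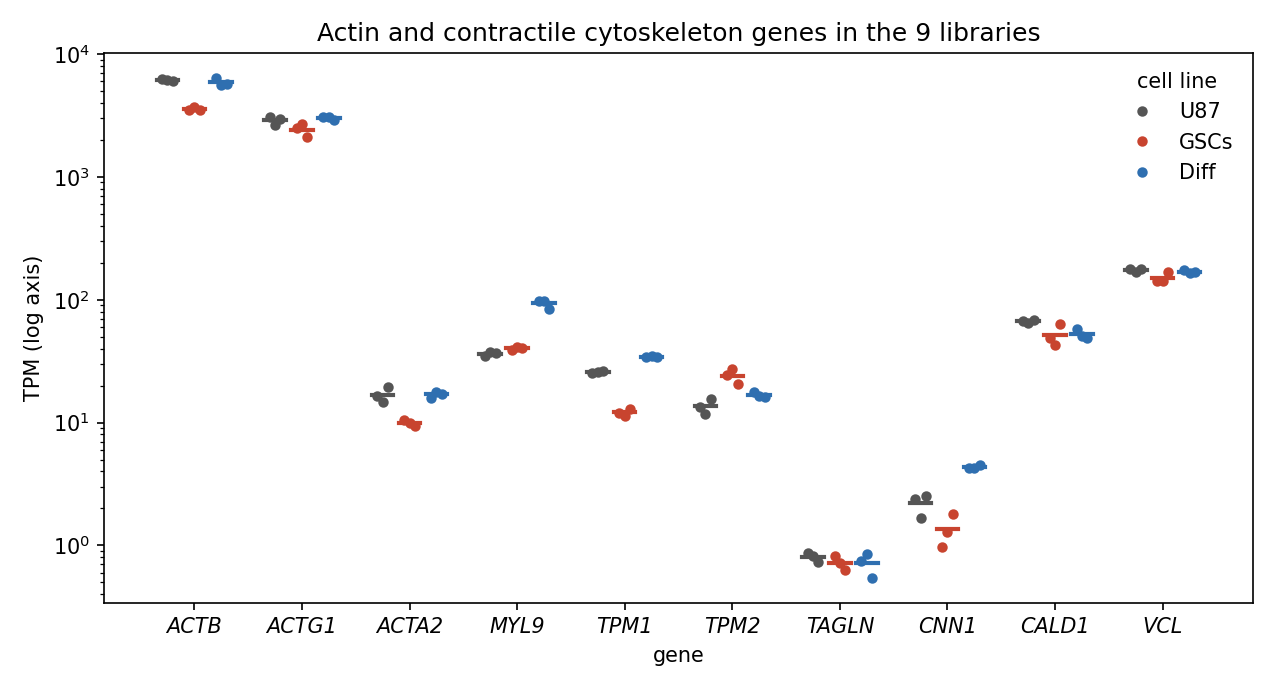
TPM of the 10 genes on a log axis, with 1 point per library and a bar at the mean of the 3 libraries of U87, GSCs and Diff cells. ACTB and ACTG1 lie between 2101 and 6378 TPM and every TAGLN value lies under 1 TPM.

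**Figure D2:**
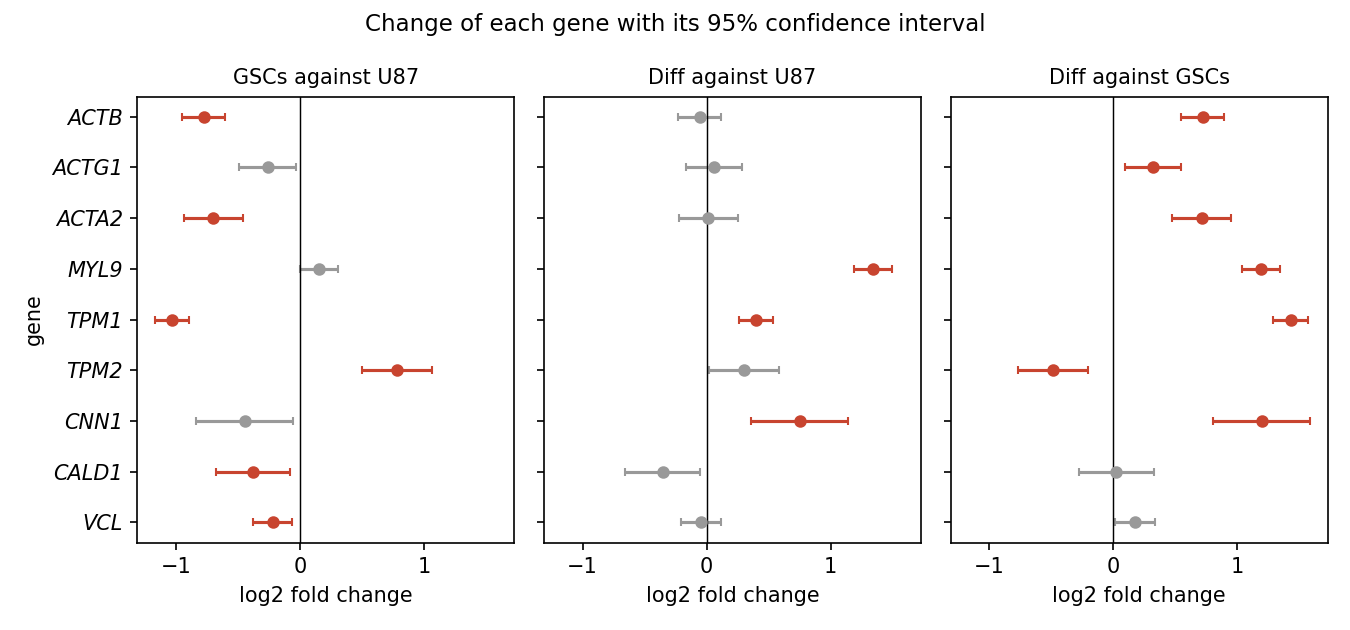
Log2 fold change of the 9 tested genes in the 3 comparisons, with 95% confidence intervals from limma; red points passed an adjusted p of 0.05 and grey points did not. TPM1 and TPM2 stand on opposite sides of 0 in GSCs against U87, at -1.03 and 0.78.

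Cytoplasmic actin transcripts were by far the most abundant of the group. ACTB ranked from 16 to 19 and ACTG1 from 21 to 26 among the 60606 genes of each library. Together they made up 94.7% to 96.5% of the TPM of the 10 genes. All 10 genes held 0.936% ± 0.0276 (SD, n = 3) of the TPM in U87, 0.931% ± 0.0459 in Diff cells and 0.63% ± 0.0376 in GSCs.

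ACTB encodes beta-actin, a gene often used as a loading reference. Its TPM was 6258, 6126 and 5992 in the U87 libraries, 3496, 3718 and 3519 in GSCs, and 6378, 5627 and 5710 in Diff cells. The GSC values lay below those of all 6 serum-grown libraries, and the values of U87 and Diff cells overlapped. GSCs were lower than U87 by a log2 fold change of -0.78 (adjusted p = 4.34e-05 from limma, standard error 0.0759), and Diff cells were above GSCs by 0.72 (adjusted p = 0.000169). Between Diff cells and U87 it was -0.05, with a 95% confidence interval from -0.23 to 0.12. With quantile normalization the difference between GSCs and U87 shrank to -0.20 and was not called (adjusted p = 0.0932), and that between Diff cells and GSCs was 0.27 (adjusted p = 0.041). Without the filter on low genes ACTB was called in neither (adjusted p = 0.321 and 0.445), and over all settings adjusted p ranged from 1.19e-05 to 0.321 and from 5.01e-05 to 0.445.

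ACTG1 encodes gamma-actin, the other cytoplasmic form. It had 3064, 2667 and 2975 TPM in U87, 2490, 2693 and 2101 TPM in GSCs, and 3052, 3070 and 2917 TPM in Diff cells. GSCs overlapped with U87 and lay below Diff cells in every library. The log2 fold change of -0.26 in GSCs against U87 missed the threshold (adjusted p = 0.0565 from limma, standard error 0.0993), with a 95% confidence interval from -0.49 to -0.04. It passed without GSCs replicate 2 (-0.34, adjusted p = 0.0232) and without U87 replicate 2 (-0.32, adjusted p = 0.0427), within a range of 0.000593 to 0.545 over all settings. The rise in Diff cells against GSCs was 0.32 (adjusted p = 0.0359). That call was lost when any 1 library was left out other than GSCs replicate 2 or U87 replicate 2, with adjusted p from 0.0508 without U87 replicate 1 to 0.0995 without Diff replicate 2, and with a log2 fold change of 0.22 without GSCs replicate 3.

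The share of the 2 cytoplasmic actins shifted with these changes. ACTB exceeded ACTG1 by a ratio of 2.12 ± 0.156 in U87 and 1.96 ± 0.129 in Diff cells (SD, n = 3). In GSCs the ratio was 1.49 ± 0.163. It ran from 1.38 to 1.67 in GSCs and from 1.83 to 2.3 in the serum-grown libraries, without overlap. A ratio within a library does not change with its scaling, and no test was run on it. ACTG1 thus held 40.3% of all actin TPM in GSCs, against 32.1% in U87 and 33.8% in Diff cells.

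ACTA2, the smooth muscle alpha-actin, was a minor transcript. It had 16.3, 14.8 and 19.5 TPM in U87, 10.5, 9.93 and 9.4 TPM in GSCs, and 15.9, 17.9 and 17.2 TPM in Diff cells. All GSC values lay below all others. GSCs stood at -0.70 against U87 on the log2 scale (adjusted p = 0.000573 from limma, standard error 0.104) and Diff cells at 0.72 against GSCs (adjusted p = 0.000979), and both calls were kept under all 19 settings tried. Diff cells and U87 differed by 0.01, with a 95% confidence interval from -0.22 to 0.25. ACTA2 made up 0.187% of actin TPM in U87, 0.166% in GSCs and 0.191% in Diff cells, where the ranges of the lines overlapped. Of its exonic bases, 30.1% lie opposite exons of FAS and ACTA2-AS1, which stood at 2.59 to 3.62 and 1.08 to 1.88 mean TPM per line, and the strand setting of the counting is not stated.

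Other actins were near 0. ACTA1, ACTC1, ACTG2 and ACTBL2 did not pass the filter. ACTG2, the enteric smooth muscle actin, averaged 1.05 TPM in U87, 0.0863 in GSCs and 0.0102 in Diff cells. ACTC1, the cardiac actin, averaged 0.042 TPM in U87, 1.24 in GSCs and 0.393 in Diff cells. Neither reached 0.03% of the actin TPM in any library.

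The actin coding sequences are close copies, which bears on how far short reads can be given to 1 gene. Over the 1128 coding bases compared from the stop codon backwards, ACTG1 equalled ACTB at 91.2% of positions and ACTA2 at 81.9%. The longest unbroken equal stretch was 59 bases for ACTG1 and 32 bases for ACTA2. The last 120 coding bases, stop codon included, are shown from GENCODE 29 transcripts on GRCh38, with capitals where a base differs from ACTB. They lie on the minus strand at chr7:5527748-5527867 for ACTB, chr17:81510690-81510809 for ACTG1 and chr10:88935223-88935342 for ACTA2.
ACTB: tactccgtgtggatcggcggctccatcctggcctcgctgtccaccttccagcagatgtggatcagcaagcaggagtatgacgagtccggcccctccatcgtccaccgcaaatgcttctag
ACTG1: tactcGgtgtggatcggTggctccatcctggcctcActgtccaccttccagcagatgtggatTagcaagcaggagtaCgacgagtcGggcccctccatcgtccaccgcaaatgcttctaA
ACTA2: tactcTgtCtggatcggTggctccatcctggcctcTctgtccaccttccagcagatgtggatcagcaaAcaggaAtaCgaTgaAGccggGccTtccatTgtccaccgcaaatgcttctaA
ACTG1 differs from ACTB at 7 of the 120 bases and ACTA2 at 14. The table also lists 11 processed-copy symbols of ACTB and 21 of ACTG1, named as the gene with P and a number. Summed, they stood at 0.283% to 0.779% of the TPM of ACTB and 0.669% to 1.25% of that of ACTG1.

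MYL9 encodes a regulatory light chain of myosin II, the subunit whose phosphorylation starts contraction. It had 34.6, 37.2 and 36.8 TPM in U87, 39.3, 41.5 and 40.1 TPM in GSCs, and 98.4, 96.8 and 84.8 TPM in Diff cells. Every Diff value was above every value of the other lines. MYL9 rose in Diff cells by 1.34 on the log2 scale against U87 (adjusted p = 1.25e-06 from limma, standard error 0.067) and by 1.19 against GSCs (adjusted p = 5.2e-06). Both remained large calls under all 19 settings. GSCs against U87 gave 0.15 without a call (adjusted p = 0.0942), although the 3 values of GSCs lay above those of U87.

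The paralogs of MYL9 are given beside it. MYL12A and MYL12B encode nearly identical regulatory light chains of nonmuscle myosin. MYL12B was the most abundant of the 3, with 67.3% of their summed TPM in U87, 68.4% in GSCs and 65.8% in Diff cells. MYL12A fell in Diff cells against U87 (log2 fold change -0.44, adjusted p = 0.0174 from limma), and MYL12B was not called there (0.07, adjusted p = 0.345). Against GSCs, MYL12B was called higher in Diff cells (0.16, adjusted p = 0.0418) and MYL12A was not called (-0.17, adjusted p = 0.303). MYL9 accordingly made up 6.84% ± 0.209 of the 3 genes in U87, 8.28% ± 0.834 in GSCs and 16.4% ± 0.762 in Diff cells (SD, n = 3), while the total of the 3 was 529 ± 6.74, 490 ± 39.2 and 567 ± 19.8 TPM.

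The tropomyosins TPM1 and TPM2 moved in opposite directions between GSCs and U87. Both encode coiled-coil proteins that polymerise along actin filaments, and both give several isoforms that gene-level values do not separate. TPM1 had 25.3, 25.8 and 26.5 TPM in U87, 12.1, 11.4 and 13 TPM in GSCs, and 34.1, 34.8 and 34.2 TPM in Diff cells. The 3 lines did not overlap, with GSCs lowest and Diff cells highest. TPM1 changed by -1.03 on the log2 scale in GSCs against U87 (adjusted p = 2.21e-06 from limma, standard error 0.0617). It rose in Diff cells, by 0.40 against U87 (adjusted p = 0.00095) and by 1.43 against GSCs (adjusted p = 1.66e-06). All 3 calls were kept under the 19 settings. The drop in GSCs was under 1 without GSCs replicate 2 (-0.99) and with 5 added to each TPM in place of 1 (-0.85). Of the exonic bases of TPM1, 21.4% lie opposite other genes, among them TPM1-AS, which averaged 0.0461 to 0.218 TPM per line.

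TPM2 had 13.5, 11.7 and 15.5 TPM in U87, 24.3, 27.4 and 20.5 TPM in GSCs, and 17.7, 16.6 and 16.3 TPM in Diff cells. GSCs were highest and U87 lowest, again without overlap. GSCs exceeded U87 by a log2 fold change of 0.78 (adjusted p = 0.00082 from limma, standard error 0.124), and Diff cells against GSCs gave -0.48 (adjusted p = 0.0159). The second call was lost without Diff replicate 2 (-0.47, adjusted p = 0.0502) or Diff replicate 3 (-0.46, adjusted p = 0.0532), within 0.00593 to 0.0585 over all settings. That call was also lost without the filter on low genes. Diff cells against U87 gave 0.30 (adjusted p = 0.089), which passed without GSCs replicate 3 (adjusted p = 0.0471) or U87 replicate 3 (0.39, adjusted p = 0.0475), within 0.0471 to 0.258 over all settings.

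TPM2 values carry an uncertainty of their own. The processed copy TPM2P1 was listed at 8.08 ± 1.5 TPM in U87, 14.1 ± 1.38 TPM in GSCs and 5.85 ± 1.68 TPM in Diff cells (SD, n = 3). This was 24.7% to 66.8% of the TPM2 value in the same library, so reads may have been shared between them. The sum of both was 21.7 ± 3.09 TPM in U87, 38.2 ± 4.71 in GSCs and 22.7 ± 1.09 in Diff cells, and GSCs lay above all serum-grown libraries on the sum as well. Unlike for TPM2 alone, U87 and Diff cells overlapped on the sum, at 19.6 to 25.2 and 22.1 to 24 TPM.

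Set against each other, TPM1 exceeded TPM2 by a ratio of 1.93 ± 0.249 in U87 and 2.04 ± 0.0992 in Diff cells, and stood at 0.515 ± 0.11 of TPM2 in GSCs (SD, n = 3). The GSC ratios ran from 0.416 to 0.633 and the others from 1.71 to 2.2. Most tropomyosin TPM belonged to TPM4, with 64.3% in U87, 66.1% in GSCs and 64.5% in Diff cells, and to TPM3, with 25.7%, 22.1% and 21%. TPM3 and TPM4 were lower in GSCs than in U87 (log2 fold change -0.56 and -0.31, adjusted p = 0.000248 and 0.0206 from limma). The total of the 4 genes was 395 ± 8.43 TPM in U87, 311 ± 32.3 in GSCs and 355 ± 14.6 in Diff cells.

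The calponin family genes were rare. CNN1, the calponin of differentiated smooth muscle, had 2.39, 1.68 and 2.54 TPM in U87, 0.973, 1.29 and 1.82 TPM in GSCs, and 4.26, 4.29 and 4.52 TPM in Diff cells. Diff cells lay above the other lines in every library, and GSCs and U87 overlapped. CNN1 rose by 0.75 on the log2 scale in Diff cells against U87 (adjusted p = 0.00803 from limma, standard error 0.172) and by 1.20 against GSCs (adjusted p = 0.000907). At this level the size depended on the amount added before the logarithm, since the rise against U87 was 0.97 with 0.1 added and 0.38 with 5, and the rise against GSCs was 1.65 and 0.56. GSCs against U87 gave -0.45 (adjusted p = 0.0604), which passed without GSCs replicate 3 (-0.58, adjusted p = 0.0207) or U87 replicate 2 (-0.57, adjusted p = 0.0334), within 0.0207 to 0.18 over all settings.

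TAGLN encodes transgelin, also called SM22-alpha, one of the most abundant proteins of smooth muscle. Its values were 0.875, 0.814 and 0.735 TPM in U87, 0.82, 0.719 and 0.635 TPM in GSCs, and 0.745, 0.855 and 0.547 TPM in Diff cells. All lines overlapped. Of the exonic bases of TAGLN, 11.4% lie opposite PCSK7, which averaged 4.1 TPM in U87, 5.19 in GSCs and 5.82 in Diff cells, well above TAGLN itself. With the strand setting unstated, the TAGLN values are uncertain. A fit without the filter gave log2 fold changes of -0.07 for GSCs and -0.08 for Diff cells against U87, and -0.01 for Diff cells against GSCs, none of them called. The smooth muscle marker DES averaged 0.0622 to 0.161 TPM per line, and LMOD1, SYNPO2, SYNM and KCNMB1 also stayed below the filter. Other smooth muscle genes passed it. SMTN averaged 95.6 TPM in U87, 89.9 in GSCs and 49.1 in Diff cells. In the same order HSPB6 averaged 18, 28.6 and 31.8 TPM, PLN 3.16, 2.12 and 1.74, and MYH11 2.22, 1.32 and 1.39.

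Paralogs of both genes were far more abundant. TAGLN2 supplied 96.1% to 99.3% of the transgelin TPM on average, at 953 ± 64.8 TPM in U87, 374 ± 7.56 in GSCs and 534 ± 24.7 in Diff cells (SD, n = 3). It fell by 1.35 on the log2 scale in GSCs (adjusted p = 5.13e-07 from limma) and by 0.83 in Diff cells (adjusted p = 1.22e-05) against U87. TAGLN3, a neuronal form, rose by 1.12 in GSCs (adjusted p = 6.76e-05). CNN2 and CNN3 held most of the calponin TPM, and CNN3 fell from 45.7 ± 4.15 TPM in U87 to 13.1 ± 0.856 in GSCs and 17.6 ± 0.944 in Diff cells. CNN2 fell in GSCs against U87 (log2 fold change -0.67, adjusted p = 0.000107) and was not called in Diff cells against U87 (-0.03). CNN1 therefore made up 1.29% ± 0.181 of calponin TPM in U87, 1.52% ± 0.555 in GSCs and 3.09% ± 0.191 in Diff cells.

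CALD1 encodes caldesmon, which binds actin and tropomyosin and restrains myosin. It had 67.7, 64.1 and 68.5 TPM in U87, 48.8, 42.7 and 64 TPM in GSCs, and 57.2, 50.7 and 48.6 TPM in Diff cells. U87 lay above both other lines, in 1 case narrowly, since GSCs replicate 3 reached 64 TPM and U87 replicate 2 had 64.1. The log2 fold change of -0.38 in GSCs against U87 was called (adjusted p = 0.0419 from limma, standard error 0.132). Without the filter on low genes it was not called. The same held when any 1 library was left out other than Diff replicate 1 or GSCs replicate 3, with adjusted p from 0.0537 without Diff replicate 3 to 0.12 without GSCs replicate 2, where the change was -0.25. The nearly equal change of -0.35 in Diff cells against U87 was not called (adjusted p = 0.0643) and was called without GSCs replicate 2 (adjusted p = 0.0312) or GSCs replicate 3 (adjusted p = 0.00689). Over all settings adjusted p ran from 0.00134 to 0.143 in the first comparison and from 0.00689 to 0.2 in the second. Diff cells and GSCs differed by 0.03, with a 95% confidence interval from -0.28 to 0.33.

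VCL encodes vinculin, which links actin to focal adhesions. It had 179, 169 and 177 TPM in U87, 142, 141 and 167 TPM in GSCs, and 176, 164 and 169 TPM in Diff cells. GSCs lay below U87, with replicate 3 close to the lowest U87 library, and overlapped with Diff cells. The change in GSCs against U87 was small, at -0.22 on the log2 scale (adjusted p = 0.0282 from limma, standard error 0.0697). It was not called without GSCs replicate 1 (-0.18), GSCs replicate 2 (-0.18), U87 replicate 1 (-0.20) or U87 replicate 3 (-0.21), with adjusted p from 0.0762 to 0.0954, and over all settings the range was 0.000984 to 0.0954. Nor was this change called without the filter on low genes. Diff cells against U87 gave -0.04 (95% confidence interval from -0.20 to 0.12). Diff cells against GSCs gave 0.18 (adjusted p = 0.0834), and 0.25 without GSCs replicate 3 (adjusted p = 0.00363, within 0.00363 to 0.225 over all settings). Of the exonic bases of VCL, 11.1% lie opposite AP3M1, which averaged 30.9 TPM in GSCs and 40.8 TPM in U87.

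The wider actin machinery was covered by 93 further genes in 7 lists, of which 81 were tested. In GSCs against U87, 48 of the 81 were lower and 14 higher, where 23.3% and 25.3% of all tested genes were. Diff cells against U87 gave 40 lower and 12 higher, beside 20.5% and 18.9% of all tested genes. Diff cells against GSCs gave 38 higher and 10 lower, beside 15% and 19.8%. Their median log2 fold changes were -0.42, -0.22 and 0.26 in that order, beside 0.02, -0.04 and -0.06 over all tested genes. The lists were chosen with results of these data known and were not tested as sets.

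Crosslinkers and focal adhesion proteins were lower in GSCs than in U87 for 15 of 24 tested genes and higher for 2, with a median log2 fold change of -0.66. Against U87, Diff cells had 13 lower and 4 higher. Of all tested genes, 23.3% were lower and 25.3% higher in GSCs, and 20.5% lower and 18.9% higher in Diff cells, against U87. PALLD, a scaffold of stress fibres, fell by 2.36 on the log2 scale in GSCs and by 2.05 in Diff cells against U87. FHL1, a LIM domain protein, fell by 2.74 and 3.88. TLN2, a talin that couples integrins to actin and vinculin, went the other way, from 5.26 ± 0.197 TPM in U87 to 19.6 ± 0.39 in GSCs and 33.9 ± 0.438 in Diff cells. Between Diff cells and GSCs 15 genes of this list were higher in Diff cells and 3 lower, beside 15% and 19.8% of all tested genes. The parvin gene PARVA was among the higher, at 1.04, and FHL1 among the lower, at -1.14.

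Genes of monomer binding and filament turnover were lower in GSCs for 13 of 19 and higher for 3, and in Diff cells against U87 lower for 13 and higher for 2. Between Diff cells and GSCs 8 were higher in Diff cells and 2 lower. For these counts and those of myosin II below, the shares of all tested genes were as follows. Against U87, 23.3% were lower and 25.3% higher in GSCs, and 20.5% lower and 18.9% higher in Diff cells. In Diff cells against GSCs, 15% were higher and 19.8% lower. CAP2, which recycles actin monomers, had 18.1 ± 1.38 TPM in U87, 5.28 ± 0.719 in GSCs and 12.9 ± 0.743 in Diff cells. The pointed-end capping genes differed, with TMOD3 at -1.37 and TMOD1 at 1.64 on the log2 scale in GSCs against U87. Among myosin II chains and their regulators, 7 of 12 were lower and 2 higher in GSCs against U87. Diff cells had 5 lower and 0 higher against U87 by limma (0 also at an unadjusted p under 0.05), and 4 higher and 1 lower against GSCs. The essential light chain gene MYL6 was the large call of that list, with 150 ± 13 TPM in U87, 64.4 ± 4.27 in GSCs and 102 ± 2.83 in Diff cells.

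SRF itself and its cofactor MRTFA, named after their values were seen, were lower in GSCs than in U87 (log2 fold change -0.42 and -0.71, adjusted p = 0.00801 and 0.000296 from limma) and higher in Diff cells than in GSCs (0.38 and 0.53, adjusted p = 0.0187 and 0.00278). The cofactor MRTFB was higher in GSCs than in U87 (0.34, adjusted p = 0.00582). Of 13 smooth muscle genes, 3 of them members, 6 passed the filter. Of these, GSCs against U87 had 1 higher and 2 lower, beside 25.3% and 23.3% of all tested genes. Diff cells against U87 had 2 higher and 3 lower, beside 18.9% and 20.5%. Diff cells against GSCs had 2 higher and 1 lower, beside 15% and 19.8%. The 2 higher genes in that last comparison were the members ACTA2 and CNN1, already counted above. With 6 genes the counts are too few to set against these shares.

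Promoter sequences were taken from RefSeq on GRCh38.p14, which had 12 entries for 7 of the 10 members. CALD1 has 4 of them, ACTA2 and TPM2 2 each. ACTB, MYL9 and TAGLN had no entry, so their promoters were not searched. Entries of 300 bases, from 250 before to 50 after the gene start, were searched on both strands for the CArG box in its strict form, for GGAATG (a core of TEAD sites), for TATAAA and for GGGCGG (a core of SP1 sites). The CArG box was in 1 of the 12, that of ACTG1, at 94 bases before the start, and in 1.3% of 34943 promoters of all genes. GGAATG was in 14% of all promoters, TATAAA in 11.6% and GGGCGG in 44.9%. A match describes the letters only and is no evidence of binding. Forms of the CArG box with a mismatch, and sites outside these entries, were not searched for. The lack of a match therefore does not show that a member lacks a CArG element. The 250 bases before the start are shown for ACTG1, which holds the CArG box, for the inner start of ACTA2, for TPM1 and TPM2, which moved in opposite directions in GSCs, and for CNN1, which rose in Diff cells. Capitals mark the searched motifs.
ACTG1, chr17:81512800-81513049, minus strand: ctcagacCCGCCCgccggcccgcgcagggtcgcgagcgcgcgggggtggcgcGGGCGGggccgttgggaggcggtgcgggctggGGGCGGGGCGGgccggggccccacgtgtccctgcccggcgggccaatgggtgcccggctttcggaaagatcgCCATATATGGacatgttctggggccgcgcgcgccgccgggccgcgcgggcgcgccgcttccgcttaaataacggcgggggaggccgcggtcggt
ACTA2, chr10:88952774-88953023, minus strand: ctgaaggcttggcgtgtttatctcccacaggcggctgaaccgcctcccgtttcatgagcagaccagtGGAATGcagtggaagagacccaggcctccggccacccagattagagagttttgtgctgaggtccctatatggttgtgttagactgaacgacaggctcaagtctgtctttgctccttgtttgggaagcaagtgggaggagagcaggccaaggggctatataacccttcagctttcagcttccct
TPM1, chr15:63048239-63048488, plus strand: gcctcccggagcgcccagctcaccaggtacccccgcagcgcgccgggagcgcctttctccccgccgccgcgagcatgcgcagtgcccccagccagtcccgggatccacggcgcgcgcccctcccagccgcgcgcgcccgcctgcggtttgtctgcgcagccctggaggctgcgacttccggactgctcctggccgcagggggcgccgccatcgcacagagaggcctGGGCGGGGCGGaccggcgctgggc
TPM2, chr9:35689926-35690175, minus strand: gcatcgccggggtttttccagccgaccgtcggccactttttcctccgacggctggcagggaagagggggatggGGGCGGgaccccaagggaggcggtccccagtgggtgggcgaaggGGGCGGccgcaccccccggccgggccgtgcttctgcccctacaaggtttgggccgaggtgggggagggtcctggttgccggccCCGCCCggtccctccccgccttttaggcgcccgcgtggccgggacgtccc
CNN1, chr19:11538601-11538850, plus strand: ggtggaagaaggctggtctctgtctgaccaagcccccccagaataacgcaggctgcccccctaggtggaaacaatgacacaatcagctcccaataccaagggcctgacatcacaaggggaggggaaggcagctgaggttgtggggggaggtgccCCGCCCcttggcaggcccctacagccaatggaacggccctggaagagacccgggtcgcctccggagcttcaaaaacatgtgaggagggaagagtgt
The shown stretch of ACTG1 was 78.8% G or C, that of TPM1 78.4%, TPM2 74.4%, CNN1 60.8% and ACTA2 54%.

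The 10 genes lie on 8 chromosomes. In GENCODE 29 on GRCh38, whose coordinates are given because the table has none, ACTB is at chr7:5527147-5563784 and CALD1 at chr7:134744252-134970728. VCL is at chr10:73995193-74121363 and ACTA2 at chr10:88935074-88991339. The others are TPM2 at chr9:35681992-35690121, TAGLN at chr11:117199321-117204782, TPM1 at chr15:63042632-63071915, ACTG1 at chr17:81509971-81523847, CNN1 at chr19:11538717-11550323 and MYL9 at chr20:36541484-36551447. ACTB, ACTG1, ACTA2 and TPM2 are on the minus strand.

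The called members were set beside the genes around them, as a description. In GSCs against U87, the 24 tested genes nearest to TPM1, 12 on each side, had a median log2 fold change of 0.04, while TPM1 was at -1.03. Around ACTB the median was 0.27, against -0.78 for ACTB. The neighbours of TPM2 had a median of -0.12, against 0.78 for TPM2, and those of ACTA2 -0.21, against -0.70. The neighbours of MYL9 had a median of -0.32 in Diff cells against U87, with 4 of 24 above 0, while MYL9 was at 1.34. In Diff cells against GSCs, CNN1 was at 1.20 with a neighbour median of -0.08. CALD1 was at -0.38 in GSCs against U87 with a neighbour median of 0.01. Closer to their surroundings were VCL and ACTG1. VCL was at -0.22 in GSCs against U87 with a neighbour median of -0.15. ACTG1 was at 0.32 in Diff cells against GSCs with a neighbour median of 0.26, and 16 of its 24 neighbours were above 0. TAGLN, which was not called, lies among genes that were mostly higher in both derived lines, with medians of 0.58 in GSCs and 0.48 in Diff cells against U87.

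Genes most like each member were sought by Pearson r of log2 values over the 9 libraries, among 13471 genes with a mean TPM over 5. The libraries fall into 3 lines, so r follows mainly the line means and is given as a description. ACTB was closest to CLCF1 (r = 0.993), MYL9 to MAN1C1 (0.993), TPM1 to C1orf226 (0.996), ACTA2 to MRPS11 (0.992), CNN1 to HSP90AA1 (0.989), VCL to CWC22 (0.994), CALD1 to ETV5-AS1 (0.986), ACTG1 to POC1A (0.982) and TPM2 to XRCC1 (0.973). TAGLN had no close match, with TCTN2 at 0.872. Some named genes were 1 of many near ties. Genes within 0.01 of the highest r, the named gene included, numbered 31 for ACTB, 20 for TPM1 and 18 for MYL9. For the other members they numbered 2 to 6. PARVA of the focal adhesion list was also close to TPM1 (0.994), where 27 genes stood within 0.01 of it or above.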

How the data were processed

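The 9 RNA-seq libraries comprised 3 each of U87, GSCs and Diff cells. Per the submitters' processing notes, reads were handled with FastQC 0.11.9, Trimmomatic 0.39, HISAT2 2.2.1, featureCounts 2.0.5 and R 4.2.0 on GRCh38. The authors deposited log2(TPM + 1) for 60606 genes; TPM sums were equal in all libraries, so depth is not kept and no counting error could be computed. The paper describes oligo(dT) enrichment, the sample records removal of ribosomal RNA and directional libraries.

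Lines were compared by limma (3.58.1, under R 4.3.3) on the deposited log2 values of genes whose mean TPM exceeded 1, in 1 fit of 9 libraries with line as the only term and a trended eBayes variance, with Benjamini-Hochberg adjustment over 22909 genes per comparison. The fit was first tested on simulated data. Members and lists were chosen with earlier results of these data known. Named genes were all members, paralogs, up to 3 large calls per list and comparison, and the genes most like a member; some items this rule names are not reported here. Other pseudocounts, filters, scalings, fits and the omission of each library were tried. Tables were made in pandas 2.3.3 and numpy 2.4.6 under Python 3.11.15, figures in matplotlib 3.10.9.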

Additional observations from a re-analysis of the deposited data

How the results depend on the processing

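The 27 log2 fold changes of members were recomputed under 19 settings. Of 510 values, 448 kept direction and side of the threshold, 34 lost the call, 19 gained one and 9 changed sign. The changes of sign concerned differences near 0 that were not called. In Diff cells against U87 they were ACTB with quantile normalization (0.0723), VCL with TPM rescaled without mitochondrial genes and RN7SL1 (0.0028), ACTG1 without U87 replicate 2, and ACTA2 without Diff replicate 2, U87 replicate 1 or U87 replicate 2. With 1 library left out, ACTG1 ran from -0.0034 to 0.0966 and ACTA2 from -0.0695 to 0.118. CALD1 in Diff cells against GSCs ran from -0.101 to 0.185, below 0 without Diff replicate 1, GSCs replicate 1 or GSCs replicate 2.

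The number of members lower in GSCs than in U87 was 5, and became 2 without the filter and 3 with only the lines compared in the fit. It ranged from 3 to 6 with 1 library left out. The large lower call (TPM1) was lost with 5 added to TPM (0 calls), and numbered 0 to 1 with 1 library left out. In Diff cells against U87, 1 member (CALD1) was lower with only the lines compared, and 0 to 1 with 1 library left out. In Diff cells against GSCs, 0 members were lower without the filter and 0 to 1 with 1 library left out. The cause was not tested.

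Same-numbered libraries did not deviate together more than others (correlations from -0.04 to 0.05, and from -0.06 to 0.05 for pairs with different numbers). With 3 libraries per line this cannot decide whether same-numbered libraries were prepared together. With a replicate block, 5 rather than 6 members were higher in Diff cells against GSCs, ACTG1 being lost (0.32, adjusted p = 0.0602 from limma), and no other call of a member changed. Scalings shifted the log2 fold changes of the tested genes by a median of at most 0.0962 per comparison. Single genes moved further, as given above for ACTB with quantile normalization.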
